A study of Mus musculus with 9 samples.

Results

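The genes described here are 10 genes of the endoplasmic reticulum (ER): the sensor Ern1, the transcription factor Xbp1 and 8 chaperones, folding enzymes and quality control factors (Hspa5, Dnajb9, Sdf2l1, Manf, Hsp90b1, Calr, Pdia4 and Herpud1). They were chosen by symbol from the 53465 genes of the count table, and where a symbol was on several rows the row with most reads was kept. Only Calr was on 2 rows, and the row left out held 10 reads over all libraries. All 10 genes passed the filter on low counts, which left 11950 genes.

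RNA-Seq had been done on bone marrow-derived macrophages (BMDMs) grown from the marrow of male wild-type C57BL/6 mice (C57bl6/J in the methods), of which the age is not stated, in medium with 10% serum and CSF1 at 50 ng/ml, the growth factor that drives macrophage differentiation. The 3 groups of 3 libraries each were left untreated (UNX), treated with CO-CM, which is medium conditioned by pulmonary artery adventitial fibroblasts of control calves, or treated with PH-CM, the same from calves with pulmonary hypertension induced by hypoxia. The labels give 16 h of treatment in one field and 24 h in another, and the methods of the study a time between these. Medium of each kind was pooled from several fibroblast populations, so the 3 libraries of a group are repeats of the macrophage culture rather than of the calves, and the untreated cells received no fibroblast medium at all.

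ER chaperones bind newly made secreted and membrane proteins, and the unfolded protein response (UPR) adjusts their supply to the load of unfolded protein. Its sensors are IRE1alpha (encoded by Ern1), PERK and ATF6. Active IRE1alpha splices Xbp1 mRNA into the form that encodes an active transcription factor, and this factor and cleaved ATF6 raise the transcription of chaperones, disulfide isomerases and degradation factors. In macrophages this machinery serves a large output of cytokines, surface receptors and lysosomal enzymes. Counts per gene do not separate spliced from unspliced Xbp1, and RNA levels do not show the activity of a sensor.

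The motif through which ATF6 and XBP1 are known to act on chaperone genes, the ER stress response element (CCAAT, any 9 bases, CCACG, searched on both strands), was looked for in RefSeq promoter windows on GRCm38.p6, which run from 250 bases before to 50 bases after a gene's start site. The related element II (ATTGG, any base, CCACG) and the core of the UPR element (TGACGTG) were searched too, a choice made after values had been seen. Windows were found for 9 of the 10 genes, all but Manf. The ER stress response element was in the windows of Hspa5, Hsp90b1 and Calr, against 0.119% of the 32851 windows in the table. Element II was in the window of Herpud1, against 0.0365% of windows, and the UPR core was in that of Hspa5, against 2.01%. The motifs are known from genes of this response, so hits among the 10 genes were likely from the start. The shares of windows are given as a description and do not test for enrichment. No exact match to these letters was in the windows of Xbp1, Ern1, Dnajb9, Sdf2l1 and Pdia4, and near matches were not searched. The last bases of the Pdia4 window were in no transcript of that gene, so its placement is less certain. The 250 bases before the start site are printed for the 4 genes whose windows held a motif, all of which were called lower under PH-CM, and for Ern1, which was called higher. Sdf2l1 and Pdia4, whose windows held no motif, were called lower under PH-CM as well (log2 fold change -1.42 and -0.56). The motifs are in capitals, and each sequence reads 5′ to 3′ on the strand of the gene.
Hspa5: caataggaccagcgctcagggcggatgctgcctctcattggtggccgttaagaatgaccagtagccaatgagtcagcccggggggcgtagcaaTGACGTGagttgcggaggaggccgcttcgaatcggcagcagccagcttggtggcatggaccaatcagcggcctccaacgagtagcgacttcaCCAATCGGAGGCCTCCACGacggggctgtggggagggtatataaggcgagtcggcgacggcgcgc
Hsp90b1: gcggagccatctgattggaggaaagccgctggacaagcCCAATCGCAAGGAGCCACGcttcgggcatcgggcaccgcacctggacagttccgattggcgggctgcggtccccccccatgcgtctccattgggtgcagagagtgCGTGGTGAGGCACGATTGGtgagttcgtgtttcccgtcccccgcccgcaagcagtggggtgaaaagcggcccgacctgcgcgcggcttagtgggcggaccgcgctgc
Calr: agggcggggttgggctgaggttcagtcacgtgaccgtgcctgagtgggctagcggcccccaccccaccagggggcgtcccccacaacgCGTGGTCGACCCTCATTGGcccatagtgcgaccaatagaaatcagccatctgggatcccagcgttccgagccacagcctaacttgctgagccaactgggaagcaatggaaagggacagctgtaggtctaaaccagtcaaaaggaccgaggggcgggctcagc
Herpud1: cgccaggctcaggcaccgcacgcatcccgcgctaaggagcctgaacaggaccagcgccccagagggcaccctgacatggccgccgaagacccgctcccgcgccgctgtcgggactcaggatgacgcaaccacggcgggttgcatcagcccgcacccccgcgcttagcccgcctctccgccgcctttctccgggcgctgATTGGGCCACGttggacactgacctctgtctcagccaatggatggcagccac
Ern1: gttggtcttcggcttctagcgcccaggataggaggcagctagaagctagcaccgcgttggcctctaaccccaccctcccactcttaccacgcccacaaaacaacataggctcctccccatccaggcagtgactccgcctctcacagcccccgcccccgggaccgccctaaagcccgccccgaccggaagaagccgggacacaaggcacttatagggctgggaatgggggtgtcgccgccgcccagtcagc

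The printed stretches lie at chr2:34771840-34772089 on the plus strand for Hspa5, chr10:86705445-86705694 on the minus strand for Hsp90b1, chr8:84846932-84847181 on the minus strand for Calr, chr8:94386179-94386428 on the plus strand for Herpud1 and chr11:106487797-106488046 on the minus strand for Ern1. In Hspa5 the ER stress response element runs from 65 to 47 bases before the start site and the UPR core from 157 to 151. Hsp90b1 holds 1 copy in the direction of the gene, from 212 to 194 bases before the start site, and 1 in the opposite direction, from 107 to 89. The copy in Calr is in the opposite direction, from 162 to 144 bases before the start site, and element II of Herpud1 lies from 52 to 42 bases before it. Start sites here are those of RefSeq. The gene positions given below are from GENCODE, and by these the stretches of Hspa5, Hsp90b1, Calr and Ern1 reach into the gene. For Hspa5 that gene starts at 34771970, which places the ER stress response element inside it. A match of letters describes the sequence and is not evidence of a bound site.

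Under PH-CM, 7 of the 10 genes fell and 2 rose compared with untreated cells. Of all genes tested, 31.7% were called lower and 31.3% higher in that comparison. Under CO-CM, 4 fell and 2 rose, where 28.9% of all genes were called lower and 28.0% higher. PH-CM compared directly with CO-CM gave 5 lower and 1 higher, where 15.0% of all genes were called lower and 12.2% higher. A gene was called at a false discovery rate (FDR) of at most 0.05 over all genes tested, by the quasi-likelihood test of edgeR, and at a change of 1.2-fold or more. The median log2 fold change of the 10 genes was -0.61 under PH-CM, -0.23 under CO-CM and -0.28 between the media, and the median of all genes tested was 0.0072, 0.00024 and -0.0064. Levels are given as CPM, which are counts scaled to library size and by TMM factors. The summed level of the 10 genes was between 3849 and 3858 CPM for UNX libraries, 3258 and 3455 CPM for CO-CM and 2375 and 2474 CPM for PH-CM libraries. In reads, the 10 genes took between 0.392% and 0.402% of a library in untreated cells, 0.316% to 0.337% under CO-CM and 0.232% to 0.249% under PH-CM. The groups did not overlap in this total. In bulk RNA, a lower level of a gene in each cell and fewer cells that express it cannot be told apart.

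**Figure D1:**
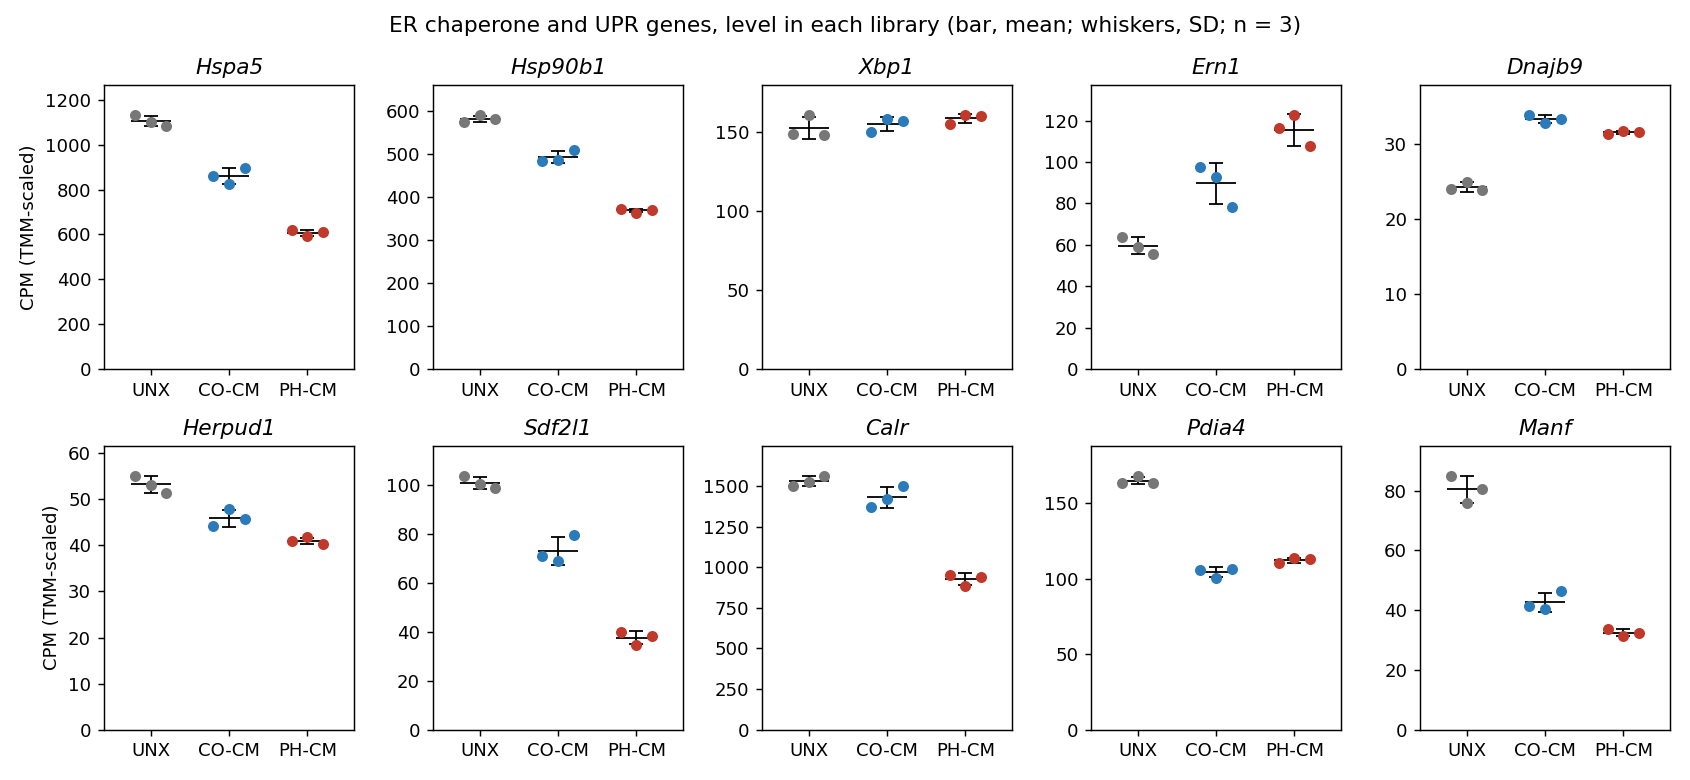
Level of each of the 10 genes in CPM (vertical axes, from 0) in the 3 libraries of each group (points), with the mean and SD. Sdf2l1 went from a mean of 100.8 CPM in untreated to 37.6 CPM for PH-CM libraries, while Ern1 went from 59.5 to 115 CPM and Xbp1 stayed between 148 and 160.5 CPM in all 9 libraries.

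Ern1 (ENSMUSG00000020715, chromosome 11 from 106394650 to 106487852 of GRCm38, minus strand), the sensor and RNase, had 63.8, 59.1 and 55.6 CPM in the untreated libraries 1, 2 and 3. The CO-CM libraries had 97.6, 92.8 and 78.4 CPM and the PH-CM libraries 116, 122.5 and 108 CPM. All CO-CM libraries lay above all untreated libraries, and all PH-CM libraries above all CO-CM libraries. The log2 fold change was 0.96 under PH-CM (SE 0.085, FDR 2.74e-06) and 0.59 under CO-CM (SE 0.085, FDR 0.000121), both against untreated cells. Between the media it was 0.37 (SE 0.085, FDR 0.00659), a level 1.29-fold higher under PH-CM.

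Xbp1 (ENSMUSG00000020484, chromosome 11 from 5520659 to 5525893, plus strand), whose mRNA is the substrate of IRE1alpha, had 149, 160.5 and 148 CPM for UNX libraries, 150.2, 158 and 157 CPM for CO-CM and 155, 160.5 and 160.1 CPM for PH-CM libraries. The 3 groups overlapped. It was not called in any comparison, with a log2 change of 0.06 under PH-CM (95% confidence interval -0.04 to 0.16, FDR 0.274), 0.02 under CO-CM (-0.08 to 0.12, FDR 0.661) and 0.03 between the media (-0.07 to 0.13, FDR 0.598). The sign of these small differences turned under some scalings.

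Hspa5 (ENSMUSG00000026864, chromosome 2 from 34771970 to 34777547, plus strand) encodes BiP, the Hsp70 chaperone of the ER lumen, which also holds the UPR sensors inactive. It had 1131, 1101 and 1085 CPM in untreated libraries. The CO-CM libraries had 860.1, 825.5 and 898 CPM and the PH-CM libraries 619.6, 591.5 and 610.5 CPM. The groups were fully separated, in the order untreated, CO-CM, PH-CM. Against untreated cells, Hspa5 fell by 45.1% under PH-CM (log2 fold change -0.86, SE 0.049, FDR 9.13e-08) and by 22.1% under CO-CM (log2 fold change -0.36, SE 0.049, FDR 7.55e-05). Between the media the log2 fold change was -0.50 (SE 0.049, FDR 2.76e-05).

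Sdf2l1, Manf and Dnajb9 encode proteins that work with BiP. Sdf2l1 (ENSMUSG00000022769, chromosome 16 from 17130138 to 17132383, minus strand), which forms a complex with an Hsp40 cochaperone, had 104, 100.2 and 98.8 CPM for UNX libraries, 70.7, 68.7 and 79.3 CPM for CO-CM and 40.01, 34.5 and 38.3 CPM for PH-CM libraries. No groups overlapped, and its fall under PH-CM was the largest of the 10 genes, 2.68-fold (log2 fold change -1.42, SE 0.069, FDR 2.88e-08). The log2 fold change was -0.47 under CO-CM (SE 0.067, FDR 0.000116) and -0.96 between the media (SE 0.068, FDR 3.65e-06), also the largest of the 10 in that comparison.

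Manf (ENSMUSG00000032575, chromosome 9 from 106838312 to 106891979, minus strand), a secreted ER protein that slows the nucleotide exchange of BiP, had 84.8, 75.9 and 80.4 CPM in untreated libraries. The CO-CM libraries had 41.2, 40.2 and 46.3 CPM and the PH-CM libraries 33.7, 31.3 and 32.3 CPM. The groups did not overlap. Manf fell 1.89-fold under CO-CM (log2 fold change -0.92, SE 0.064, FDR 6.47e-07), the largest fall of the 10 genes in that comparison, and 2.47-fold under PH-CM (log2 fold change -1.31, SE 0.065, FDR 3.58e-08). Between the media the log2 fold change was -0.39 (SE 0.065, FDR 0.000947). Its annotated exons share 14 bases with Rbm15b on the same strand and on the opposite strand 146 with Dcaf1 and 166 with 4930524O07Rik, so reads there could not be given to Manf alone. Over all libraries Rbm15b held 82.6% as many reads as Manf, Dcaf1 40.4% and 4930524O07Rik 0.22%.

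Dnajb9 (ENSMUSG00000014905, chromosome 12 from 44205559 to 44210326, minus strand), an Hsp40 cochaperone known to bring BiP to IRE1alpha, had 24.0, 25.0 and 23.9 CPM for UNX libraries, 33.9, 32.8 and 33.4 CPM for CO-CM and 31.4, 31.7 and 31.7 CPM for PH-CM libraries. Both treated groups lay above the untreated libraries. It rose by 30.1% under PH-CM (log2 fold change 0.38, SE 0.046, FDR 2.56e-05) and by 37.4% under CO-CM (log2 fold change 0.46, SE 0.046, FDR 8.17e-06). Between the media the log2 fold change was -0.08 (95% confidence interval -0.18 to 0.02, FDR 0.198) and was not called, although the 3 PH-CM libraries lay just below the 3 CO-CM libraries.

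Hsp90b1 (ENSMUSG00000020048, chromosome 10 from 86690209 to 86705509, minus strand) encodes GRP94, the Hsp90 of the ER, which folds Toll-like receptors and integrins. It had 575, 589.7 and 581 CPM for UNX libraries, 482, 486 and 509.6 CPM for CO-CM and 372, 364 and 369.6 CPM for PH-CM libraries. The groups did not overlap. The log2 fold change was -0.66 under PH-CM (SE 0.042, FDR 2.2e-07) and -0.42 between the media (SE 0.042, FDR 3.5e-05). Under CO-CM it was -0.24 (SE 0.042, FDR 0.000467), a fold change below 1.2, so the gene was not called, and it was called with library size alone (-0.31), without the filter on low counts (-0.28), with filterByExpr (-0.27) and without CO-CM replicate 3 (-0.26). Its exons share 415 bases with the pseudogene 1810014B01Rik on the opposite strand, which held 0.407% as many reads.

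Calr (ENSMUSG00000003814, chromosome 8 from 84841850 to 84846934, minus strand) encodes calreticulin, a calcium-binding lectin that folds glycoproteins. It had 1503, 1525 and 1562 CPM for UNX libraries, 1372, 1418 and 1501 CPM for CO-CM and 955, 884 and 938 CPM for PH-CM libraries. The CO-CM and untreated libraries nearly touched, and the PH-CM libraries lay far below both. The log2 fold change was -0.72 under PH-CM (SE 0.054, FDR 6.74e-07) and -0.63 between the media (SE 0.054, FDR 1.22e-05). Under CO-CM it was -0.10 (95% confidence interval -0.22 to 0.02, FDR 0.13) and was not called.

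Pdia4 (ENSMUSG00000025823, chromosome 6 from 47796141 to 47813430, minus strand), a disulfide isomerase, had 163, 168 and 163 CPM for UNX libraries, 106, 100.5 and 106 CPM for CO-CM and 110.2, 113 and 113 CPM for PH-CM libraries. Both treated groups lay well below the untreated libraries, and the PH-CM libraries lay above the CO-CM libraries. Pdia4 fell by 36.8% under CO-CM (log2 fold change -0.66, SE 0.040, FDR 2.18e-07) and by 32% under PH-CM (log2 fold change -0.56, SE 0.040, FDR 5.08e-07). Between the media the log2 fold change was 0.11 (95% confidence interval 0.02 to 0.19, FDR 0.0576) and was not called.

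Herpud1 (ENSMUSG00000031770, chromosome 8 from 94386438 to 94395377, plus strand) encodes HERP, a membrane protein that organizes the degradation of misfolded proteins. It had 55.04, 53.2 and 51.4 CPM for UNX libraries, 44.1, 47.8 and 45.7 CPM for CO-CM and 40.9, 41.8 and 40.4 CPM for PH-CM libraries. The groups did not overlap. Herpud1 fell by 23% under PH-CM (log2 fold change -0.38, SE 0.047, FDR 3.58e-05). The log2 fold change was -0.21 under CO-CM (SE 0.047, FDR 0.00213) and -0.16 between the media (SE 0.047, FDR 0.021), both under the fold threshold.

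**Figure D2:**
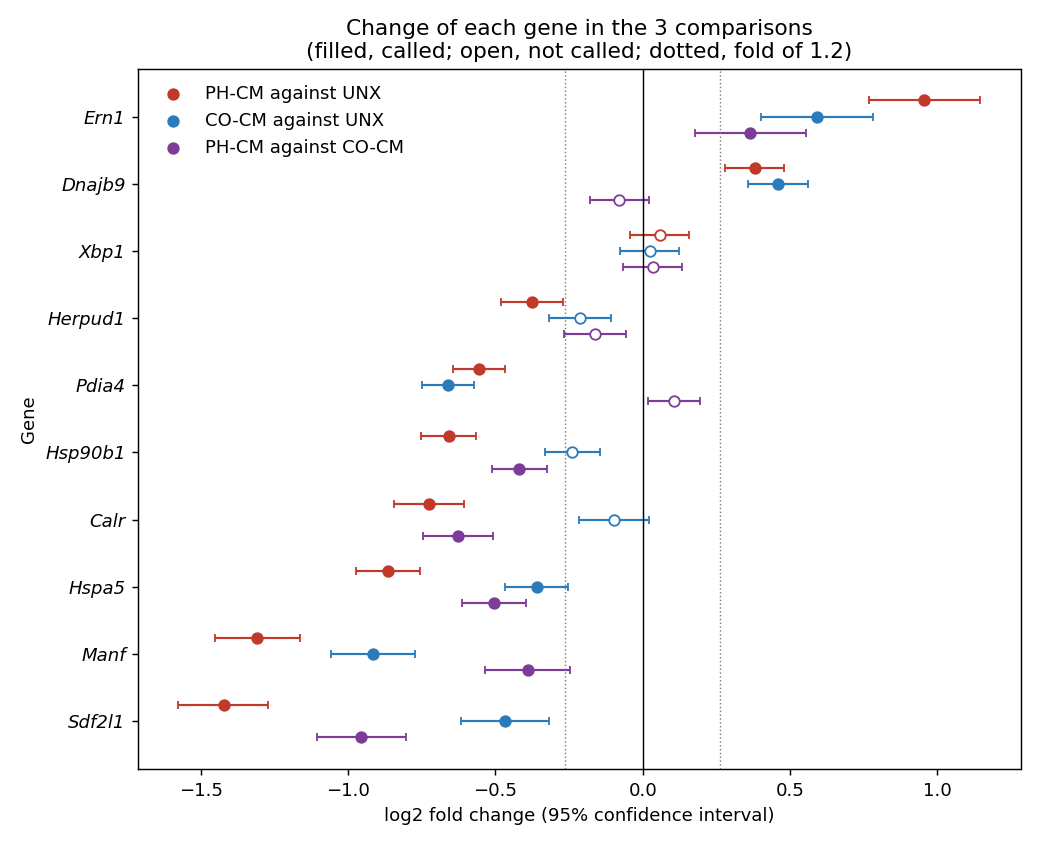
Log2 fold change of the 10 genes (horizontal axis) with 95% confidence intervals in the 3 comparisons, where filled points are called genes, open points are not, and dotted lines mark a fold change of 1.2. Under PH-CM the values run from -1.42 for Sdf2l1 to 0.96 for Ern1, and Pdia4 is the only gene called lower under both media whose value between the media is above 0.

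The 2 comparisons with untreated cells use the same 3 untreated libraries, so their values are related. Within each replicate number, the difference on log2 CPM was taken for each gene described here in each comparison. It had the same sign for all 3 numbers in 28 of the 30 combinations of gene and comparison, the exceptions being Xbp1 under each medium. The 3 comparisons share libraries, so the 30 combinations are not independent. The share of all genes tested with such agreement was not computed, so the count does not set these genes apart. With 3 libraries against 3, the smallest two-sided p of an exact permutation test is 0.1, and the calls depend on how edgeR shares its estimate of the spread among genes. The study describes the libraries as biological triplicates from a repeated experiment but does not tie them to separate mice, so p-values measure the spread between these libraries, which may be technical in part.

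Between genes, levels were compared in the deposited RPKM, which divide the counts by exon length and by the reads of the library without a TMM factor, so that steps between groups differ slightly from those in CPM. Calr (546 RPKM for UNX libraries, 486 for CO-CM and 318 for PH-CM libraries on average), Hspa5 (269, 199.6 and 142) and Hsp90b1 (148, 119.7 and 90.3) held the top of the order in every group, and their library ranges did not touch. Sdf2l1 was next in untreated cells (93.6 RPKM, libraries from 90.8 to 97.7) and came after Xbp1 and Pdia4 under PH-CM (33.6 RPKM, libraries from 30.5 to 36.3). Manf had 23.5 RPKM in untreated cells, where its libraries overlapped those of Herpud1, and was the lowest of the 10 genes under PH-CM (9.1 RPKM). Ranks in RPKM rest on the annotated exon length, which was 3524 bases for Manf and 2549 for Dnajb9. In CPM under PH-CM, Manf (32.5 on average) was not below Dnajb9 (31.6). Ern1 was the lowest in untreated cells (7.49 RPKM, libraries from 6.94 to 8.15), could not be separated from Manf under CO-CM (10.8 and 11.8 RPKM), and was above Dnajb9 and Manf under PH-CM (13.9 RPKM, libraries from 12.9 to 14.7).

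**Figure D3:**
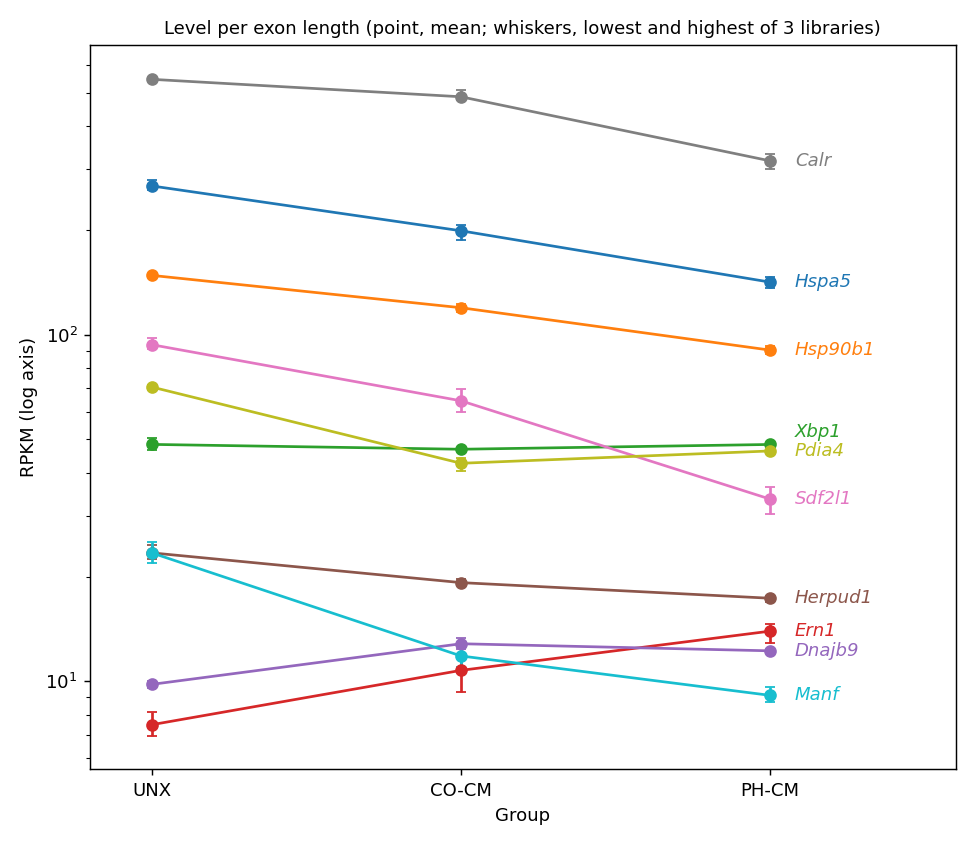
Mean RPKM of the 10 genes (vertical log axis) in the 3 groups, with whiskers from the lowest to the highest of 3 libraries. The line of Xbp1 is level, at 48.3 RPKM in untreated and 48.2 RPKM for PH-CM libraries, and the lines of Ern1 and Manf cross.

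Other genes of the ER and of linked pathways, whose products are not all in the ER, were read from 9 lists. These hold 153 further genes, of which 150 passed the filter. Under PH-CM, 50 of the 150 were called lower (33.3%) and 23 higher (15.3%). Under CO-CM, 34 were lower (22.7%) and 23 higher (15.3%), and between the media 31 were lower (20.7%) and 11 higher (7.33%). The share called lower was thus near that of all genes tested under PH-CM, below it under CO-CM and above it between the media, and the share called higher was below it in every comparison. Their median log2 fold change was -0.08, -0.02 and -0.07. Ern2 had no reads in any library, and Fkbp14 and Derl3 did not pass the filter.

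Among the other UPR sensors and their activators, 8 genes were tested. Under PH-CM 1 rose (Creb3l2) and 2 fell (Creb3, at -0.35, and Creb3l1), under CO-CM 1 rose (Creb3l2) and 0 fell, and between the media 0 were higher and 2 lower (Creb3l1 and Creb3l2) under PH-CM. The counts of 0 were the same with the exact test of edgeR and with DESeq2, with 1 gene each at an unadjusted p under 0.05. The sensor genes of the remaining arms, which are Eif2ak3 (PERK) and Atf6, were not called in any comparison. Eif2ak3 had 48.5 ± 0.48 CPM (SD, n = 3, as for all such values) for UNX libraries, 50.2 ± 0.968 for CO-CM and 53.4 ± 1.82 for PH-CM libraries, with a log2 change of 0.14 under PH-CM (FDR 0.0134). Atf6 had 159 ± 10.6, 153 ± 6.56 and 140.0 ± 3.53 CPM, with a log2 change of -0.19 under PH-CM (FDR 0.0107). Creb3l2, a transcription factor of the same type as ATF6, rose under CO-CM (0.94 on the log2 scale, FDR 1.79e-07) and under PH-CM (0.52, FDR 9.94e-06). Creb3l1, of the same family, fell under PH-CM against untreated cells (-0.84, FDR 9.22e-06) and against CO-CM (-0.95, FDR 2.04e-05).

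In the arm of PERK and ATF4, 6 of 12 genes fell (50.0%) and 4 rose (33.3%) under PH-CM, and 4 fell (33.3%) and 3 rose (25.0%) under CO-CM. Between the media 6 were lower (50.0%) and 2 higher (16.7%) under PH-CM. The shares of all genes tested were 31.7%, 28.9% and 15.0% lower and 31.3%, 28.0% and 12.2% higher. Atf4 itself was among the genes that fell under PH-CM, from 325.5 ± 24.8 to 165.7 ± 11.2 CPM (log2 fold change -0.97, FDR 1.02e-05). Chac1, a glutathione-degrading enzyme and ATF4 target, had 6.17 ± 1.56 CPM for UNX libraries, 1.25 ± 0.461 for CO-CM and 0.331 ± 0.127 for PH-CM libraries, a log2 change of -4.21 under PH-CM (FDR 1.54e-06). Ddit4, an inhibitor of mTORC1, rose under PH-CM (1.72 on the log2 scale, FDR 3.1e-07), from 4.47 ± 0.617 to 14.7 ± 1.03 CPM. Atf3, a stress-induced transcription factor, rose under CO-CM (0.93, FDR 5.25e-05), with 126 ± 15.1 CPM for UNX libraries, 239 ± 36.9 for CO-CM and 90.5 ± 8.13 for PH-CM libraries.

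Of 23 further chaperones and folding factors, 7 fell and 6 rose under PH-CM, 6 fell and 6 rose under CO-CM, and between the media Sil1 was lower and Cnpy3 and Cnpy4 were higher under PH-CM. The call of Sil1 (-0.29 on the log2 scale) was lost without PH-CM replicate 2 (-0.25). These shares were near or below those of all genes tested. Creld2, which is induced together with Manf in ER stress, had 51.3 ± 2.01 CPM for UNX libraries, 29.3 ± 0.113 for CO-CM and 27.2 ± 0.593 for PH-CM libraries, a log2 change of -0.91 under PH-CM (FDR 4.69e-08) and -0.81 under CO-CM (FDR 1.69e-07). Cdnf, the paralog of Manf, went the other way, from 0.851 ± 0.143 CPM to 1.89 ± 0.166 under CO-CM (log2 fold change 1.15, FDR 0.000146) and 1.48 ± 0.087 under PH-CM (0.80, FDR 0.00162). Cnpy3, a chaperone that works with GRP94 on Toll-like receptors, rose under PH-CM against CO-CM (0.51 on the log2 scale, FDR 4.47e-06), from 92.9 ± 1.15 to 132 ± 1.73 CPM.

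Of the 18 disulfide isomerases and oxidases, 10 fell and 3 rose under PH-CM (55.6% and 16.7%), beside 31.7% and 31.3% of all genes. Under CO-CM 4 fell and 2 rose (22.2% and 11.1%), beside 28.9% and 28.0%. Between the media 5 were lower and 1 higher (27.8% and 5.56%), beside 15.0% and 12.2%. Pdia6, a partner of BiP, fell from 292 ± 3.26 CPM in untreated to 209 ± 13.2 for CO-CM and 141 ± 5.19 for PH-CM libraries, with a log2 change of -1.05 under PH-CM (FDR 3.85e-08). Ero1a, the oxidase that recharges the isomerases, differed between the media by 0.78 on the log2 scale, PH-CM being the higher (FDR 0.00366), with 69.7 ± 7.16, 54.01 ± 8.39 and 92.8 ± 23 CPM for UNX, CO-CM and PH-CM libraries. The PH-CM libraries of Ero1a varied more than those of any of the 10 genes, with a coefficient of variation of 24.7%. Against untreated cells, where the groups overlapped, the log2 change of Ero1a was 0.41 (FDR 0.0383). This call was lost without PH-CM replicate 2 (0.20, FDR 0.187), UNX replicate 1 (0.35, FDR 0.108), UNX replicate 3 (0.38, FDR 0.0998) or CO-CM replicate 3 (0.41, FDR 0.0511), with DESeq2 (FDR 0.121), with library size alone (FDR 0.0543) and with filterByExpr (FDR 0.0534).

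Of 23 genes of ER-associated degradation, 1 fell under PH-CM (4.35%, Aup1) and 5 rose (Edem2, Os9, Erlec1, Herpud2 and Selenok), beside the 31.7% and 31.3% of all genes. The log2 change of Aup1 (-0.29) was not past the fold threshold with upper-quartile factors (-0.26). Edem2, a mannose-trimming enzyme that marks glycoproteins for degradation, had 53.3 ± 3.2 CPM for UNX libraries, 120.1 ± 8.11 for CO-CM and 90.9 ± 3.99 for PH-CM libraries, a log2 change of 1.17 under CO-CM (FDR 1.08e-07) and 0.77 under PH-CM (FDR 1.48e-06). Under CO-CM 3 genes of the list fell (Nploc4, Ube2j1 and Ube2j2) and 5 rose, and between the media Edem1 and Edem2 were lower and Ube2j1 higher under PH-CM.

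Of 23 genes of translocation and signal peptide cleavage, 7 fell (30.4%) and 1 rose under PH-CM, 3 fell and 2 rose under CO-CM, and 7 were lower (30.4%) and 0 higher between the media by the quasi-likelihood and exact tests of edgeR and by DESeq2, with 1 higher at an unadjusted p under 0.05. The share of this list called lower was near that of all genes tested under PH-CM (31.7%), below it under CO-CM (28.9%) and above it between the media (15.0%). Ssr2, a subunit of the translocon-associated complex, had 82.04 ± 2.53 CPM for UNX libraries, 69.9 ± 4.1 for CO-CM and 54.4 ± 1.48 for PH-CM libraries, a log2 change of -0.59 under PH-CM (FDR 2.42e-06). Of 15 genes of N-glycosylation and glucose trimming, 8 fell under PH-CM (53.3%), 4 under CO-CM (26.7%) and 5 were lower between the media (33.3%), and 0 were called higher by the same tools, with 1 higher under PH-CM and 2 higher in each of the other comparisons at an unadjusted p under 0.05. Mogs, the glucosidase that starts glucose trimming and so opens the calreticulin cycle, fell from 75.02 ± 6.04 CPM to 43 ± 0.534 under CO-CM (log2 fold change -0.80, FDR 7.1e-07) and 36.6 ± 0.667 under PH-CM (-1.04, FDR 7.89e-08).

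Of 18 genes of ER exit and retrieval, 4 fell and 2 rose under PH-CM and 3 fell and 2 rose under CO-CM, and between the media Lman1 was lower and Mcfd2 higher under PH-CM. The call of Lman1 (-0.27 on the log2 scale) fell below the fold threshold without CO-CM replicate 1 (-0.25), CO-CM replicate 3 (-0.25) or PH-CM replicate 2 (-0.25) and with library size alone (-0.26). Kdelr2, a receptor that returns BiP, GRP94 and calreticulin from the Golgi, fell under PH-CM (-0.75, FDR 2.58e-07) and under CO-CM (-0.62, FDR 1.54e-06). Kdelr3, of the same family, rose under PH-CM (1.07, FDR 0.000753) but at a low level, 0.878 ± 0.12 CPM in untreated and 1.85 ± 0.351 for PH-CM libraries. Of 10 genes of ER calcium handling, 5 fell and 1 rose under PH-CM, 7 fell and 2 rose under CO-CM, and 2 were lower and 4 higher between the media. Atp2a3, a pump that fills the ER with calcium, had 120.9 ± 6.86 CPM for UNX libraries, 69.9 ± 3.94 for CO-CM and 36.5 ± 0.973 for PH-CM libraries, a log2 change of -1.73 under PH-CM (FDR 2.67e-09).

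Outside the ER, of 21 cytosolic and mitochondrial chaperones tested, 12 fell (57.1%) and 4 rose under PH-CM. Under CO-CM 14 fell (66.7%) and 2 rose, and between the media 3 were lower (14.3%) and 2 higher. Of all genes tested, 31.7%, 28.9% and 15.0% were called lower in these comparisons. Hsp90aa1, the inducible cytosolic Hsp90, went from 382 ± 13.2 CPM in untreated to 149 ± 10.5 for CO-CM and 136 ± 3.58 for PH-CM libraries, a log2 change of -1.49 under PH-CM (FDR 5.37e-09) and -1.36 under CO-CM (FDR 1.94e-08). The median log2 fold change of the list was -0.29 under PH-CM, -0.32 under CO-CM and 0.03 between the media. The medians of the 10 ER genes were -0.61, -0.23 and -0.28.

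**Figure D4:**
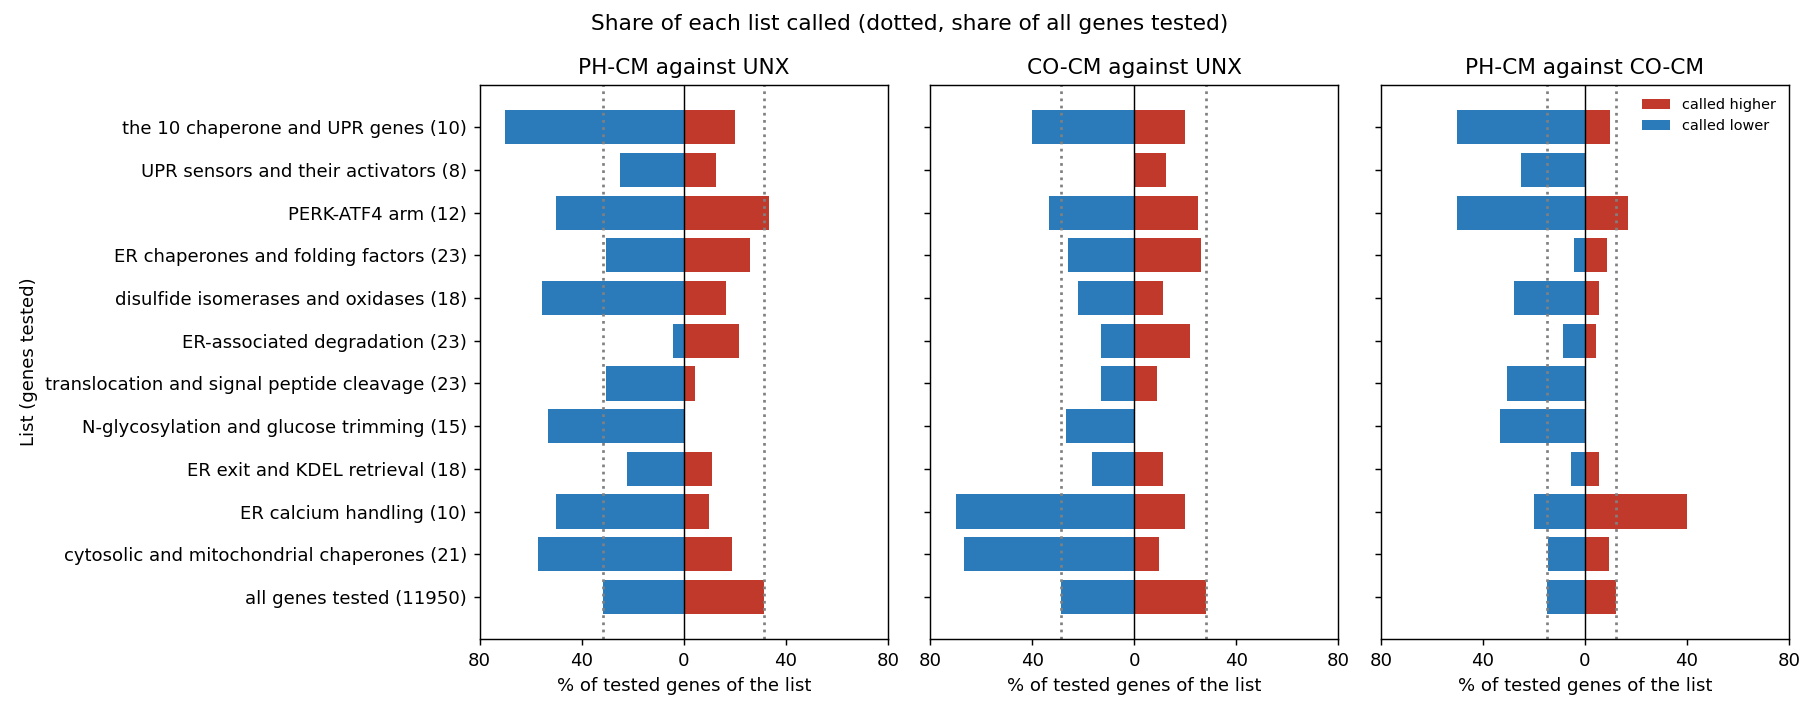
Share of the tested genes of each list called higher (right of 0) and lower (left of 0) in the 3 comparisons, with the number tested in parentheses and dotted lines at the shares of all 11950 genes. The 10 genes show 70% called lower under PH-CM and 50% between the media, beyond the dotted lines at 31.7% and 15%, while ER-associated degradation shows 4.35% and 8.7%. Also beyond the line under PH-CM are cytosolic and mitochondrial chaperones (57.1%), disulfide isomerases (55.6%), N-glycosylation (53.3%), the PERK-ATF4 arm (50%) and ER calcium handling (50%). Several lists pass the line between the media too, among them the PERK-ATF4 arm (50%).

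Of the tested genes in the promoter table, 14 held the ER stress response element, among them Hspa5, Hsp90b1 and Calr. Under PH-CM, 8 of the 14 were called lower (57.1%), which were Calr, Hsp90b1, Canx, Pdia6, Dnajc3, Creld2, Hspa5 and Hnrnpa3, and 4 higher (Pan2, Adcy3, Xlr3b and Gm20560). Of all 9149 tested genes in that table, 31.8% were called lower and 31.5% higher. Under CO-CM 5 were lower (35.7%) and 3 higher (21.4%), beside 29.4% and 28.1% of all tested genes in that table. Between the media 4 were lower (28.6%) and 2 higher (14.3%), beside 14.7% and 12.2%. Element II was held by 9 tested genes, with 5 lower (55.6%) and 3 higher (33.3%) under PH-CM. The UPR core was held by 304, with 29.3% lower and 28.3% higher under PH-CM. Several of these genes are also on the lists above, so these counts are not separate evidence.

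The genes whose level across the 9 libraries was most like that of Hspa5 were Arap2, Pdia6, Ptma, Hdac9 and Tox2, by Pearson's r on log2 CPM (0.9949 to 0.9993). Among the 10 genes, r to Hspa5 was 0.995 for Hsp90b1, 0.994 for Sdf2l1, 0.948 for Calr, 0.947 for Herpud1, 0.946 for Manf and 0.716 for Pdia4, and below 0 for Ern1 (-0.949), Dnajb9 (-0.702) and Xbp1 (-0.543). The genes most like Ern1 were Zeb2, Cpne3, Yipf4, Med12 and Mia3 (r from 0.9931 to 0.9968). These values describe 9 points that fall into 3 groups and share their libraries, and mainly order genes by their group means.

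The counted reads were between 62017933 and 84314201 per library, and most counts under 20 were even (81.4% to 83.8% of them), so each mate of a read pair was probably counted separately, and fragments are fewer than counts. All 7 macrophage markers were well expressed, and their sum moved with the groups, from 11470 to 12310 CPM for UNX libraries, 18810 to 19750 for CO-CM and 20690 to 22370 for PH-CM libraries, mostly through Lyz2. Of 6 fibroblast markers 5 passed the filter, with a sum of 194 to 245 CPM for UNX libraries, 261 to 313 for CO-CM and 243 to 331 for PH-CM libraries, mostly from Col1a1 and Col1a2, and Lum was at 4 reads or fewer in every library. The part of these shifts in the results was not tested. Markers of B and plasma cells, which carry much ER, were near 0. These 6 genes summed to at most 1.08 CPM, and Mzb1 had no reads.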

How the data were processed

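RNA-Seq of 9 libraries of mouse BMDMs was analysed, 3 per group, with groups and replicate numbers from the labels. The authors used AfterQC for trimming, STAR for alignment to GRCm38 and featureCounts 1.6.2 for counting on exons, and deposited raw counts per gene and RPKM values. The counting is stated without options for strand or read pairs. Their comparison tables hold their own fold changes and p-values and were not used.

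The genes that exceeded a CPM of 1 in 3 or more libraries were fitted together with edgeR 4.0.16 in R 4.3.3 (TMM, a mean per group, quasi-likelihood test, Benjamini-Hochberg FDR over all 11950 genes tested). SD and log2 CPM (prior count 2) were computed from these counts, and RPKM served only for levels between genes. The fit was tested on simulated data in which only the few genes counted here were changed, out of 11785 to 11802 tested. In the real data 31.3% of genes were called higher and 31.7% lower under PH-CM. The simulation therefore does not show how the fit does when so many genes change. Of genes changed 1.5-fold, it called 74 of 99 for PH-CM, 84 of 100 for CO-CM and 84 of 99 between the media. Of genes changed 2-fold, it called 92 of 100, 92 of 98 and 97 of 99. There were 11, 10 and 10 false calls among the unchanged genes. No pair of libraries of a group was as close as sampling noise (chi-square per gene of at least 10.6). The 10 genes and the lists were chosen with earlier results of these data known. Named beside them are, per list and comparison, the called genes with the largest rise and fall at a mean CPM of at least 1 (some are left to counts), any genes counted in small numbers, and the 5 genes most like Hspa5 and Ern1. The sensors Eif2ak3 and Atf6 and the transcription factor gene Atf4 were named after their values were seen. Over all genes tested, libraries with the same replicate number deviated together in all 9 pairs (r 0.276 to 0.484), which pairs them by number. Over the 10 genes alone, r was -0.251 to 0.882 in these pairs and -0.888 to 0.66 in pairs of unlike number. No source says what a number marks, and the fit with this block is an alternative. Positions are from GENCODE (GRCm38) and promoters from RefSeq. Alternatives were other tests (edgeR exact, DESeq2 1.42.0), scalings, filters, thresholds, a replicate block, halved counts and each library left out.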

Additional observations from a re-analysis of the deposited data

How the results depend on the processing

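The choice that moved the counts of calls most was the fold threshold. At a fold of 2, 2 of the 10 genes were called lower under PH-CM (Sdf2l1 and Manf) and 0 higher, with 0 called in either direction in the other comparisons (the fold alone removed them), and the 150 further genes gave 2 higher and 5 lower for PH-CM, 2 and 3 for CO-CM, and 1 and 3 between the media. With no fold threshold, those were 36 higher and 69 lower under PH-CM, 40 higher and 54 lower under CO-CM, and 17 higher and 50 lower between the media. Under CO-CM, upper-quartile factors turned the balance of these genes from 23 higher and 34 lower to 36 higher and 25 lower. Hsp90b1 was also called lower under CO-CM with library size alone, without the low-count filter, with filterByExpr and without CO-CM replicate 3 (-0.31, -0.28, -0.27 and -0.26), and Herpud1 with library size alone (-0.28). With library size alone, the log2 fold change of Xbp1 turned to -0.00015 for PH-CM and -0.046 for CO-CM. For CO-CM it turned to -0.016 without the filter and -0.0088 with filterByExpr, and with each library left out it was -0.011 to 0.051 (below 0 without UNX replicate 1, at -0.0049, or 3). It turned to -0.0037 between the media with upper-quartile factors, none past the threshold. The replicate block, for libraries paired by number, changed no call among the 10 genes. With it the FDR of Pdia4 between the media was 0.0256 and that of Calr under CO-CM 0.0446, both at a fold change under 1.2. With each library left out, the counts of the 10 genes stayed the same but for 4 to 5 lower under CO-CM. The cause of these shifts was not tested, and depth was not limiting for the 10 genes, the lowest of which had 1553 reads in a library.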
